A study of Mus musculus with 27 samples.

Results

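The genes described here are the 8 that build the mouse urea cycle, 6 enzymes and 2 mitochondrial carriers, chosen by gene symbol: Cps1, Otc, Ass1, Asl, Arg1, Nags, Slc25a15 and Slc25a13. They are 8 of 21850 genes in a table of bulk RNA-seq counts, and all 8 passed the filter on low counts in each of the fits used below. The urea cycle disposes of ammonia in the liver. Inside mitochondria, CPS1 makes carbamoyl phosphate once it is activated by N-acetylglutamate, the product of NAGS, and OTC joins carbamoyl phosphate to ornithine to give citrulline. In the cytosol ASS1 adds aspartate, ASL splits the product into arginine and fumarate, and ARG1 cleaves arginine to urea and ornithine. SLC25A15 returns ornithine to the mitochondrion in exchange for citrulline, and SLC25A13 exports aspartate. In liver the pathway is known as a function of hepatocytes, strongest near the portal vein.

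RNA came from C57BL/6 mouse liver cells labelled WT in 9 groups of 3 libraries. Freshly isolated hepatocytes were one group, and its replicate 3, titled WT, carries the genotype label MDR2-het. Hepatocyte organoids (HepOrgs), which are primary hepatocytes grown in 3D, were sampled at passage 2 after 7 or 14 days (1 or 2 weeks) in the expansion medium HM-Wnt or in MM, a leaner medium made for co-culture. By the paper's methods, HepOrgs for media tests were first expanded in HM-Wnt until passage 2 and then transferred. The days therefore do not count from isolation. HepOrgs for assembloids were also expanded in HM-Wnt first. Homeostasis and fibrosis-like periportal assembloids (homeostatic and fibrotic-like here) joined 10 HepOrgs with 1000 cholangiocytes and either 250 or 2500 portal mesenchymal cells, and were kept in MM for 7 or 18 days (1 or 2.5 weeks). The study used adult mice of both sexes, and the labels give no age. Nothing in the labels says whether replicates came from separate animals or cultures, so p-values measure the spread between these libraries, which may be technical.

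Total counts ran from 30289364 to 65348596 per library. Of 12 hepatocyte markers (Alb, Ttr and others) none was at 0 throughout any group, and their summed level was 164400 to 189000 CPM (counts scaled to the library total) in fresh hepatocytes and 105500 to 322400 CPM in HepOrgs. The 6 cholangiocyte markers summed to 11.8 to 139 CPM in fresh hepatocytes and to 3524 to 14990 CPM in all other libraries, HepOrgs without added cholangiocytes included. The library labelled homeostatic assembloid 1 week replicate 2 stood apart, with 8465 genes with a count against 14016 to 16018 in the other 26 and a summed hepatocyte marker level of 5683 CPM. Fibrotic-like assembloid 1 week replicate 3 was also low, at 12720 CPM. The 9 pericentral markers, of which Oat was at 0 in every library, summed to 11240 to 17820 CPM in fresh hepatocytes and to 42.04 to 1647 CPM elsewhere. The 8 endothelial markers summed to 59.09 to 281 CPM in fresh hepatocytes and to 0.927 to 270.7 CPM elsewhere, the 8 immune markers to 31.28 to 305.1 CPM and 0.0205 to 58.5 CPM, and the 5 proliferation markers to at most 237.8 CPM, in fibrotic-like assembloids at 1 week. The main edgeR counts of passing genes that rest on homeostatic replicate 2 are given with and without it. Correlations over group means and the marker ranges of this paragraph keep it.

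In freshly isolated hepatocytes Ass1, Cps1 and Arg1 led among the 8 urea cycle genes. All levels in CPM are scaled over the 27 libraries by edgeR's trimmed mean of M values and are not corrected for gene length, so they compare a gene between libraries only. Cps1 stood at 4297, 5221 and 3794 CPM in replicates 1, 2 and 3, Ass1 at 4395, 6661 and 3580.4 CPM, and Arg1 at 2886, 2542 and 2065 CPM. Otc stood at 705, 895 and 639 CPM. Per exon length (TPM recomputed with exon lengths, which allows genes to be compared), Ass1 took 36.9 to 45.8% of the summed level of the 8 genes, Cps1 21.8 to 23.9%, Arg1 20.4 to 28.4% and Nags 1.61 to 2.08%. Each of the 3 fresh libraries, replicate 3 included, had Ass1 as the leading gene.

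In culture the summed exon-length level of the 8 genes fell from 6400 to 8780 TPM in fresh hepatocytes to 241 to 946 TPM in the 24 culture libraries, and the groups did not overlap. The makeup differed too. Nags, the least abundant of the 6 enzymes in fresh hepatocytes, held 21.8 to 30.9% of the sum in HM-Wnt HepOrgs, where Arg1 held 0.113 to 6.38%. Arg1 was the leading contributor in assembloids of 2.5 weeks except fibrotic-like replicate 2, where Ass1 led with 39.5%, and Arg1 held 44.7 to 60.7% in homeostatic and 37.3 to 65.6% in fibrotic-like ones.

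**Figure D1:**
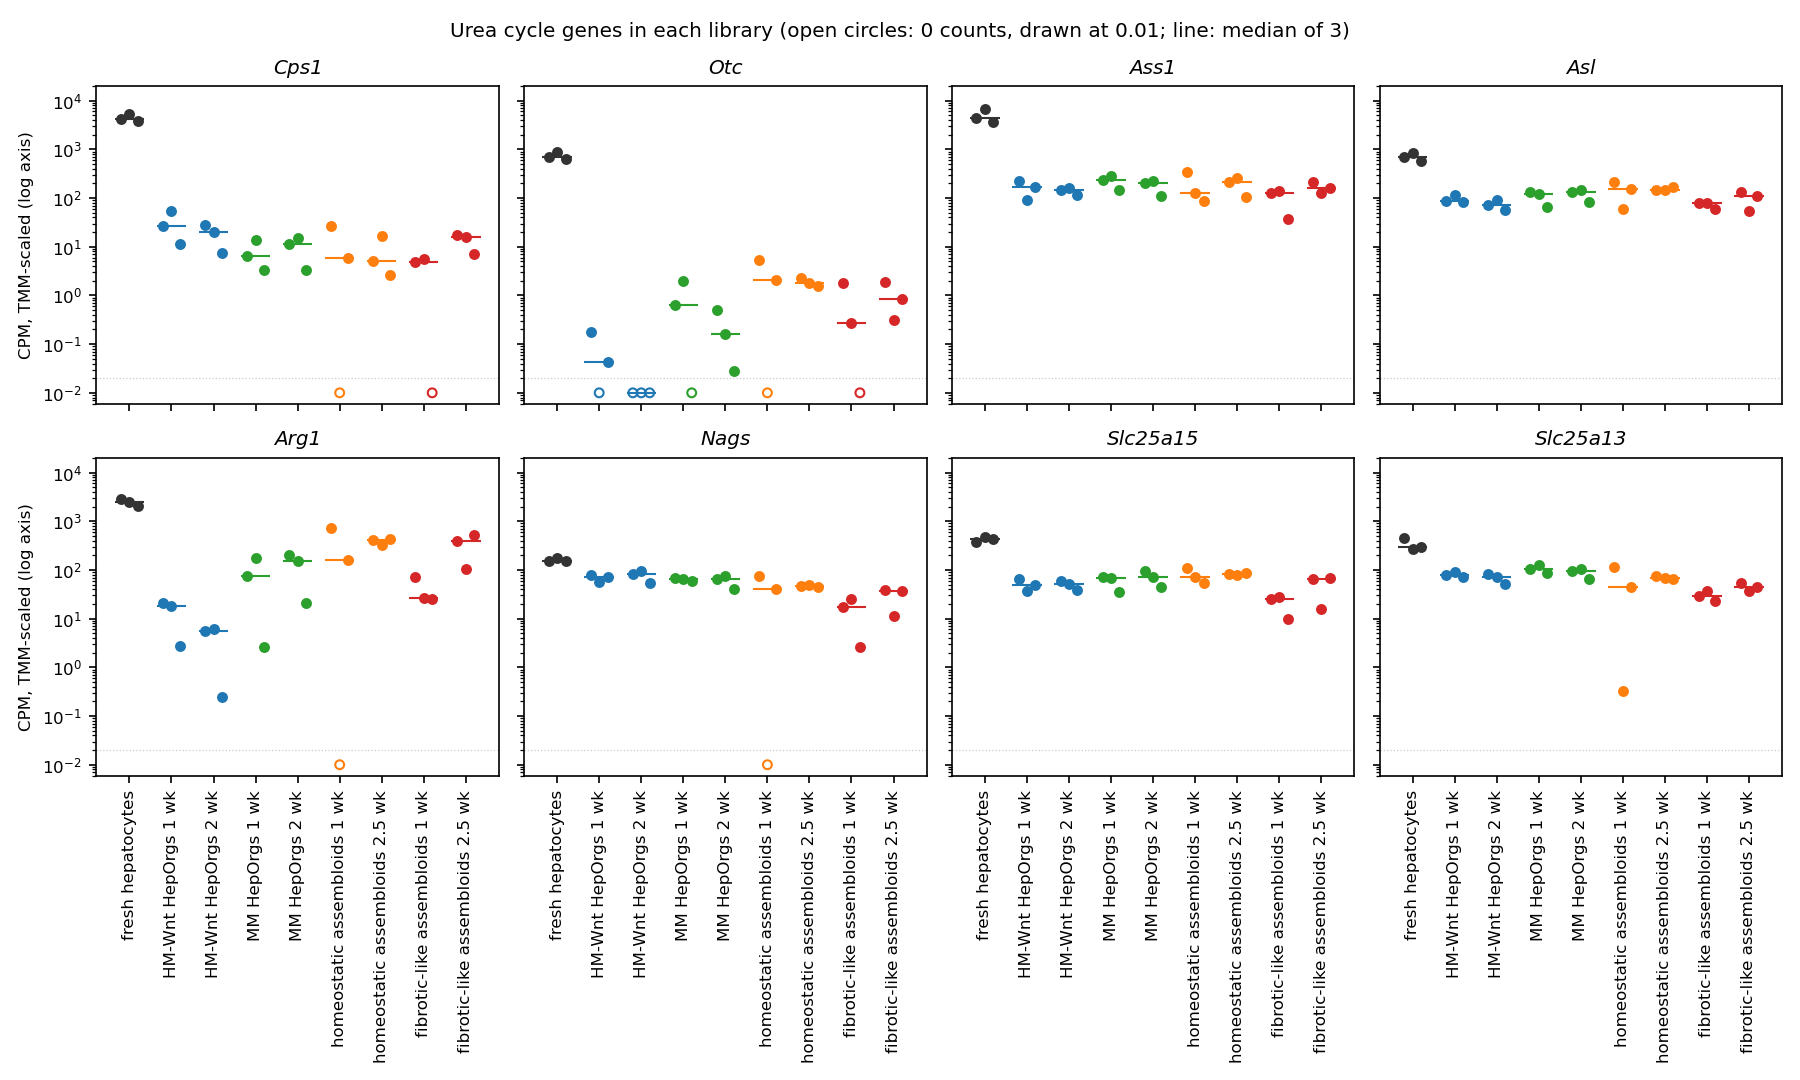
Level of each of the 8 urea cycle genes in CPM (log axis), one panel per gene and one point per library, for the 9 groups of 3 libraries. Fresh hepatocytes lie above every culture group for all 8 genes, a separation that was not counted over all genes. Otc sits at or near 0 in HM-Wnt HepOrgs, and homeostatic assembloid 1 week replicate 2 is at 0 for Cps1, Otc, Arg1 and Nags.

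**Figure D2:**
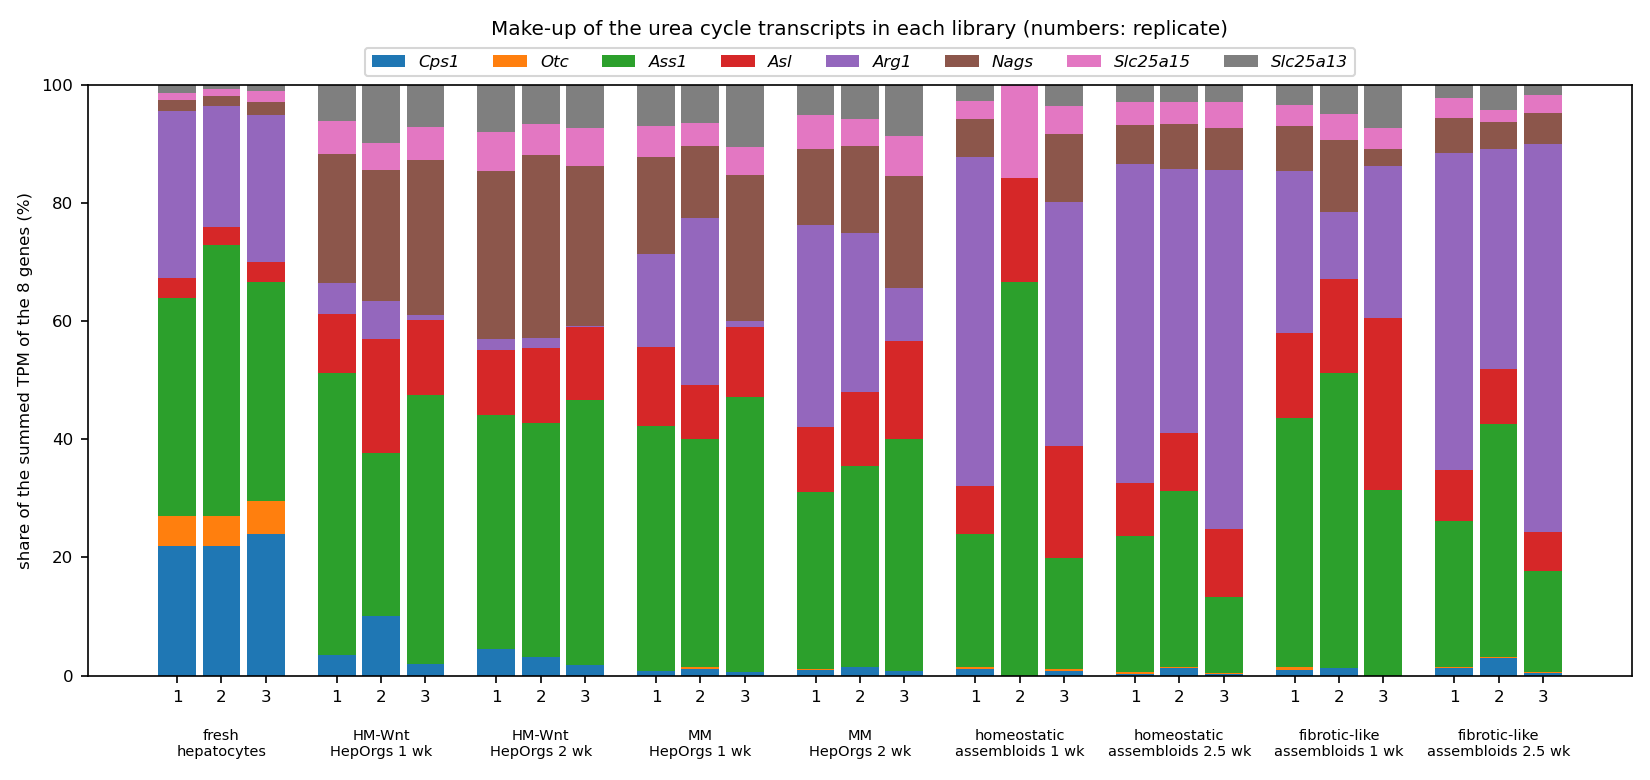
Share of each gene in the summed exon-length TPM of the 8 urea cycle genes, in percent, by group. Ass1, Cps1 and Arg1 make up most of the sum in fresh hepatocytes, Nags takes 21.8 to 30.9% in HM-Wnt HepOrgs, and Arg1 takes 44.7 to 60.7% in homeostatic assembloids of 2.5 weeks.

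The first comparison set each HepOrg group against the fresh hepatocytes, that is, cultured against starting cells. All 8 genes were lower in all 4 HepOrg groups, and in HM-Wnt at 2 weeks the fall ran from 2.17-fold for Nags to at least 9630-fold for Otc. By edgeR's quasi-likelihood test with Benjamini-Hochberg adjustment over 13405 genes, 8 of 8 passed the 0.05 threshold as lower in HM-Wnt at 1 week (background 24.8% of all genes tested), 8 of 8 in HM-Wnt at 2 weeks (25.7%), 8 of 8 in MM at 1 week (21.3%) and 8 of 8 in MM at 2 weeks (20.0%). The median log2 fold change of the 8 genes was -4.03, -4.21, -3.68 and -3.48 in that order. The median of all genes tested lay at 0.02, 0.03, 0.00 and -0.01, and that of the 12 hepatocyte markers at -0.19, -0.87, -0.95 and -0.81. The 4 comparisons share the fresh libraries. In bulk RNA, fewer cells of a type and less RNA per cell cannot be told apart.

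Cps1 and Otc, the mitochondrial enzymes that make carbamoyl phosphate and citrulline, fell steeply in each HepOrg group. Cps1, which commits ammonia to the cycle, stood at 26.8, 54.9 and 11.5 CPM in HM-Wnt HepOrgs at 1 week and 28.0, 20.4 and 7.29 CPM at 2 weeks. In MM it stood at 6.49, 14.0 and 3.34 CPM at 1 week and 11.2, 14.9 and 3.36 CPM at 2 weeks. No HepOrg library came near the lowest fresh one, and replicate 3 was the lowest in each of the 4 groups. The log2 fold changes against fresh were -7.19 ± 0.87 (SE, n = 3 per group; edgeR adjusted p = 2.34e-05) and -7.92 ± 0.90 in HM-Wnt, and -9.13 ± 0.94 and -8.84 ± 0.93 in MM.

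Otc, the citrulline-forming enzyme, was close to absent. It was counted 6, 0 and 2 times in HM-Wnt libraries at 1 week (0.174, 0 and 0.0432 CPM) and in none of the 3 at 2 weeks. In MM it reached 0.627, 1.95 and 0 CPM at 1 week and 0.508, 0.164 and 0.0280 CPM at 2 weeks. Every one of these 12 values lies far under the lowest fresh value of 639 CPM. Against a floor of 3 counts per library, Otc was at least 9630-fold lower in HM-Wnt HepOrgs at 2 weeks than in fresh hepatocytes, a bound that covers counting error only. For the groups with counts the log2 fold changes were -12.53 ± 1.36 (HM-Wnt, 1 week), -9.74 ± 1.19 (MM, 1 week) and -11.37 ± 1.28 (MM, 2 weeks), with edgeR adjusted p from 2.38e-05 to 7.50e-05.

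Nags, whose product switches CPS1 on, fell least. Its levels were 155, 178 and 153 CPM in fresh hepatocytes, 79.6, 56.1 and 72.5 CPM in HM-Wnt at 1 week and 81.0, 94.1 and 52.8 CPM at 2 weeks. MM gave 69.9, 66.5 and 58.1 CPM at 1 week and 66.4, 73.7 and 40.4 CPM at 2 weeks. The fresh values did not overlap with any of these, although the gap was small. The log2 fold changes ran from -1.12 ± 0.24 (edgeR adjusted p = 0.00191, HM-Wnt, 2 weeks) to -1.45 ± 0.25 (0.000492, MM, 2 weeks). On the log2(TPM + 1) scale of the TPM computed by the authors the change at 2 weeks in HM-Wnt was -0.32 and the call was lost (limma adjusted p = 0.219).

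Among the cytosolic enzymes, Ass1 and Asl kept 56.9 to 281 CPM in every HepOrg library, whereas Arg1 ranged from 0.248 to 198 CPM. Ass1, which makes argininosuccinate, stood at 229, 92.3 and 166 CPM in HM-Wnt at 1 week, 148, 159 and 115 CPM at 2 weeks, 233, 281 and 145 CPM in MM at 1 week and 203, 224 and 110.3 CPM at 2 weeks. These 4 groups overlapped each other, and the log2 fold changes against fresh lay between -5.14 ± 0.45 and -4.50 ± 0.43. Asl, which releases arginine, stood at 702, 826 and 579 CPM in fresh hepatocytes and at 56.9 to 145 CPM in the 12 HepOrg libraries, with log2 fold changes from -3.28 ± 0.32 to -2.56 ± 0.31.

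Arg1, the urea-releasing step, stood at 21.4, 18.2 and 2.79 CPM after 1 week in HM-Wnt and at 5.70, 6.09 and 0.248 CPM after 2 weeks. In MM it reached 75.3, 175 and 2.68 CPM at 1 week and 198, 151 and 21.3 CPM at 2 weeks. Replicate 3 was the lowest by several-fold in each of the 4 groups. Against fresh hepatocytes the log2 fold changes were -7.49 ± 1.55 (edgeR adjusted p = 0.00144), -9.29 ± 1.68 (0.000487), -4.89 ± 1.38 (0.0117) and -4.35 ± 1.34 (0.0197). The last of these calls was lost without MM 2 weeks replicate 2 (edgeR adjusted p = 0.0551) or replicate 3 (0.0635).

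The carriers fell far less than Cps1 and Otc. Slc25a15, the ornithine carrier, stood at 374, 467 and 435 CPM in fresh hepatocytes and at 36.1 to 93.6 CPM in the 12 HepOrg libraries, with log2 fold changes from -3.11 ± 0.34 to -2.61 ± 0.33. Slc25a13, the aspartate-glutamate carrier also called citrin, stood at 448, 269 and 297 CPM in fresh hepatocytes and at 51.5 to 128 CPM in HepOrgs. Its log2 fold changes ran from -2.32 ± 0.25 to -1.67 ± 0.25, and the HepOrg values did not reach the lowest fresh one.

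**Figure D3:**
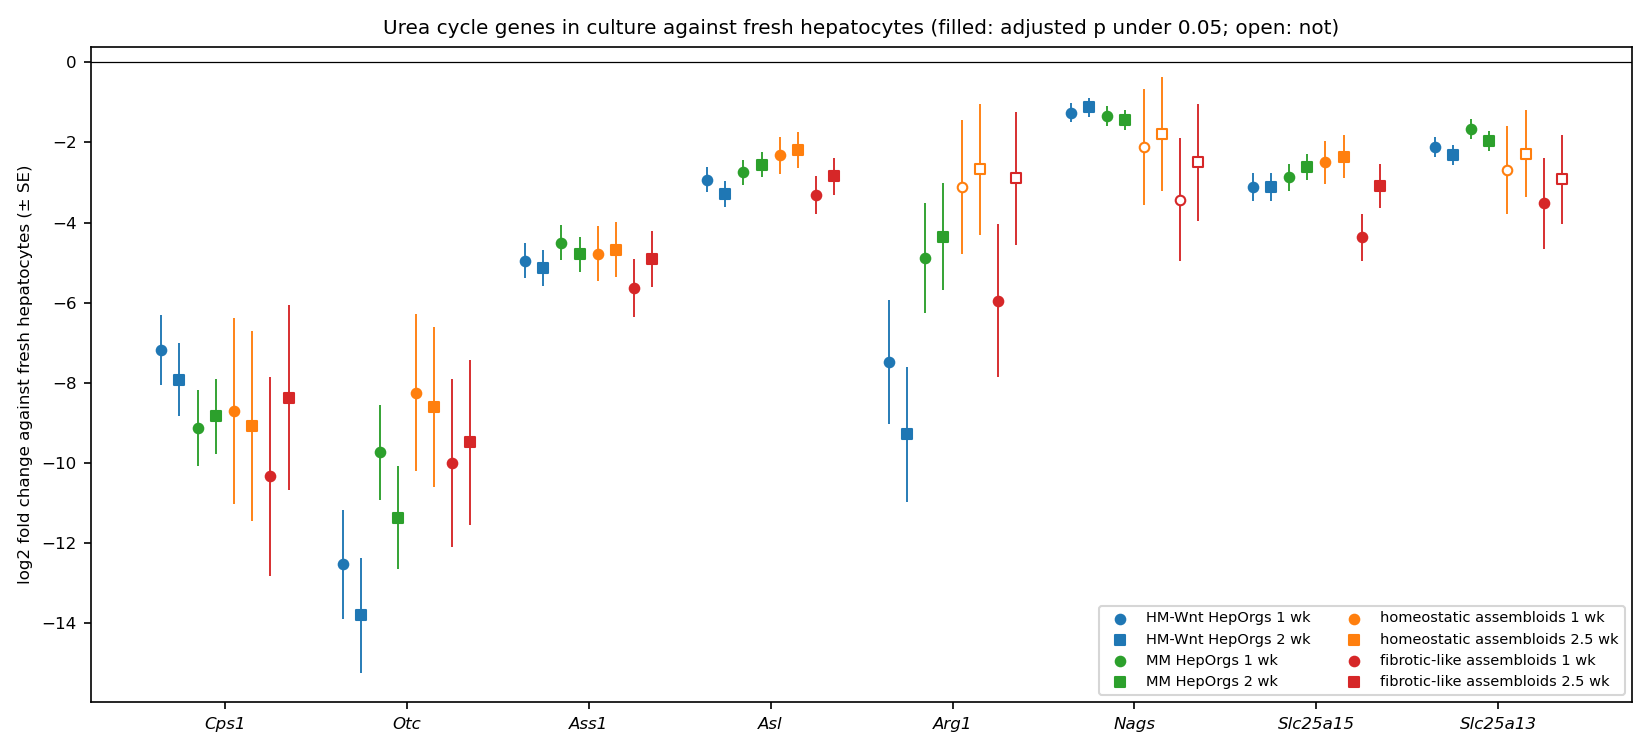
Log2 fold change of each urea cycle gene against fresh hepatocytes in the HepOrg and assembloid groups, with bars of 1 SE from edgeR fits of 15 libraries. Every value is below 0; in HepOrgs Otc lies furthest down, Arg1 lies below Cps1 in HM-Wnt and above it in MM, and Nags, in HepOrgs, lies closest to 0 at -1.12 to -1.45.

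Replicate 3 of the HepOrgs ran low for most of these genes. It was the lowest of the 3 libraries in 4 of 4 HepOrg groups for Cps1, Asl, Arg1 and Slc25a13, in 3 of 4 for Ass1, Nags and Slc25a15, and in 2 of 4 for Otc. The summed hepatocyte markers were also lowest in replicate 3 in 4 of 4 groups, and their part in these values was not tested.

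The promoters of Otc and Nags, the genes with the largest and the smallest fall in HepOrgs, are shown because the 2 genes moved so unequally; both were chosen after their values were seen. RefSeq promoters of build GRCm38.p6, 250 bases before to 50 after the start, were found for 5 of the 8 genes. Otc on chrX:10252055-10252354 (+) and Nags on chr11:102145263-102145562 (+) read as follows, with matches to the searched motifs in capitals.
Otc: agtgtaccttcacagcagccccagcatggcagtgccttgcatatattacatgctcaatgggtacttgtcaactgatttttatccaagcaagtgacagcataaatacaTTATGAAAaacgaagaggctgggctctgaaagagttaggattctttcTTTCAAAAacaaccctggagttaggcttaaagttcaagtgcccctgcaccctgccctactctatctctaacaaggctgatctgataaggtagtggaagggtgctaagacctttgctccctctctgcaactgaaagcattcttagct
Nags: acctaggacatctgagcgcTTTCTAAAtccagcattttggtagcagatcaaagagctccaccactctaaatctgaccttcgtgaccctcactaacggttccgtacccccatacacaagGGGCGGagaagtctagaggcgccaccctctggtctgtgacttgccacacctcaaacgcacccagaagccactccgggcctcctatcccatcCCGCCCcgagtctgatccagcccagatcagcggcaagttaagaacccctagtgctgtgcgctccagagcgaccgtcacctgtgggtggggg
Both strands were searched. The Otc window had a GC content of 44.3% and held 2 matches of the loose C/EBP pattern TTNNGNAA, which 40.7% of all 32851 promoters of this length also hold. The Nags window had a GC content of 57.7%, 2 GC boxes (GGGCGG, in 35.7% of promoters) and 1 match of TTNNGNAA. The median GC content over all promoters was 52.7%. TATAAA, found in 13.6% of promoters, was in none of the 6 windows of the 5 genes.

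On GRCm39 with GENCODE vM39 the whole genes, exons and introns together, span the following positions. Cps1 lies on chromosome 1 from 67161988 to 67270418 (+), Otc on chromosome X from 10118503 to 10187265 (+), Ass1 on chromosome 2 from 31352181 to 31410862 (+) and Asl on chromosome 5 from 130040099 to 130058088 (-). Arg1 lies on chromosome 10 from 24791118 to 24803817 (-), Nags on chromosome 11 from 102036339 to 102040303 (+), Slc25a15 on chromosome 8 from 22865516 to 22889423 (-) and Slc25a13 on chromosome 6 from 6040252 to 6217294 (-). None overlaps another gene of the table.

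The second comparison asked what the change of medium did within HepOrgs. Over both times Arg1 and Otc passed as higher in MM than in HM-Wnt, whereas Cps1 pointed the other way without passing. In the fit of 12 HepOrg libraries over 12989 genes, 2 of 8 passed over both times (background 21.5% of genes, either direction). That count lies near the share of all genes, so it does not set the 8 genes apart. Arg1 had a log2 fold change of 3.77 ± 0.98 (edgeR adjusted p = 0.0197) and Otc of 2.68 ± 0.83 (0.0469). Cps1 had -1.43 ± 0.51 (0.0661), and Ass1, Asl, Nags and both carriers lay between -0.21 and 0.45 with none passing. The Otc call rests on 8 counts in 6 HM-Wnt libraries against 131 in 6 MM libraries, and it was lost when any of 10 of the 12 libraries was left out, with an adjusted p of up to 0.114.

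At single times the same test called fewer genes. At 1 week 0 of 8 passed (background 2.98%), with 1 of 8 (Cps1) at an unadjusted p under 0.05, 1 by DESeq2 and 0 by limma. At 2 weeks 0 of 8 passed (background 11.5%), with 3 of 8 (Otc, Asl and Arg1) at an unadjusted p under 0.05, 2 by DESeq2 and 0 by limma. Arg1 had a log2 fold change of 4.94 ± 1.47 at 2 weeks (edgeR adjusted p = 0.0512), and its 3 MM values, from 21.3 to 198 CPM, all lay above the 3 HM-Wnt values, from 0.248 to 6.09 CPM.

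Same-numbered HepOrg libraries deviated together from their group means, so the replicate number was also fitted as a block. With the block 5 of 8 genes passed over both times (background 28.9%), namely Arg1 (3.58 ± 0.39, edgeR adjusted p = 0.000173), Cps1 (-1.46 ± 0.19, 0.000447), Slc25a13 (0.39 ± 0.09, 0.0112), Asl (0.42 ± 0.12, 0.0256) and Otc (2.33 ± 0.68, 0.0355). At 1 week the block gave 1 of 8 (background 9.48%), Cps1 at -1.92 ± 0.27 (edgeR adjusted p = 0.00395). At 2 weeks it gave 3 of 8 (background 19.6%), Arg1 at 5.25 ± 0.60 (edgeR adjusted p = 0.000342), Asl at 0.71 ± 0.17 (0.0157) and Cps1 at -1.0 ± 0.27 (0.0259). With the block, then, Cps1 was lower and Arg1 higher in MM over both times, and Nags, Ass1 and Slc25a15 passed in neither fit.

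**Figure D4:**
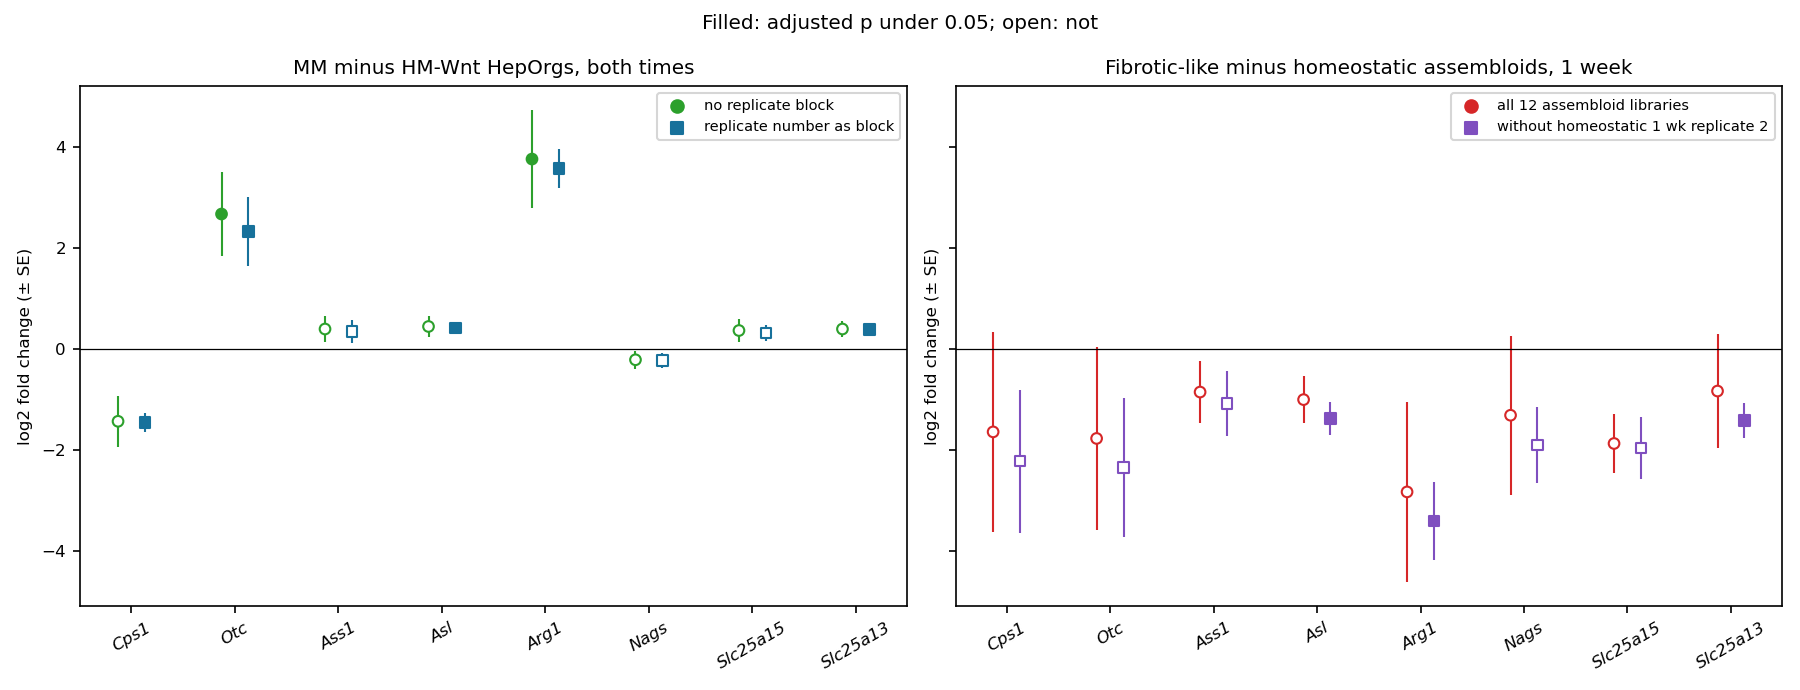
Left, log2 fold change of MM over HM-Wnt HepOrgs over both times without and with the replicate number as a block; right, fibrotic-like over homeostatic assembloids at 1 week with all libraries and without homeostatic replicate 2; bars are 1 SE. Arg1 is the highest on the left, at 3.77 and 3.58, and the lowest on the right, at -2.83 and -3.41.

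The step from 1 to 2 weeks in either medium moved none of the 8 genes past the threshold. Between 2 weeks and 1 week 0 of 8 passed in HM-Wnt (background 0% of genes) and 0 of 8 in MM (background 0.0154%), and 0 of 8 in the medium by time interaction (background 0%). By edgeR without the block 0 of 8 reached an unadjusted p under 0.05 in each of these 3 comparisons, and DESeq2 and limma called 0 of 8. With the replicate block 0 of 8 passed as well, beside 0, 3 and 0 of all genes tested. In that fit Arg1 was at -2.14 ± 0.55 in HM-Wnt (edgeR adjusted p = 0.165) and 1.18 ± 0.51 in MM (0.334). Its interaction was 3.33 ± 0.76 (0.145).

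The third comparison set assembloids with 2500 mesenchymal cells against those with 250. At 1 week Arg1 stood at 712, 0 and 163 CPM in homeostatic and at 71.0, 26.5 and 25.7 CPM in fibrotic-like assembloids. Asl stood at 218, 59.9 and 155 CPM against 77.5, 77.3 and 60.9 CPM, and Slc25a13 at 114, 0.327 and 44.5 CPM against 28.7, 37.4 and 23.5 CPM. In each gene the groups overlapped through homeostatic replicate 2 alone. Slc25a15, at 109, 71.3 and 53.9 CPM against 25.1, 28.1 and 9.69 CPM, did not overlap even with that library (log2 fold change -1.87 ± 0.58, edgeR adjusted p = 0.279).

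With all 12 assembloid libraries 0 of 8 genes passed at 1 week (edgeR, 14255 genes, background 0%), with 1 of 8 (Slc25a15) at an unadjusted p under 0.05, 1 by DESeq2 and 0 by limma. Without homeostatic replicate 2, an alternative chosen after seeing the data, 3 of 8 passed as lower in fibrotic-like assembloids (background 8.01%, either direction). These were Arg1 (-3.41 ± 0.77, edgeR adjusted p = 0.0442), Asl (-1.38 ± 0.33, 0.0455) and Slc25a13 (-1.41 ± 0.35, 0.0465). The remaining 5 had log2 fold changes from -2.34 to -1.08, and for all but Ass1 the 2 groups did not overlap. With so few libraries per group, and the share of all genes without overlap not counted, no conclusion is drawn from this.

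Markers of the cell types moved alongside at 1 week. The 12 hepatocyte markers summed to 12720 to 79250 CPM in fibrotic-like and to 5683 to 252300 CPM in homeostatic assembloids, with none of the 12 at 0 in all libraries of a group. The 9 mesenchyme markers summed to 309 to 6503 CPM against 154.7 to 1076 CPM. Without homeostatic replicate 2 the homeostatic sums were 122900 to 252300 CPM for hepatocyte and 154.7 to 329.7 CPM for mesenchyme markers. The median log2 fold change without homeostatic replicate 2 was -2.05 for the hepatocyte markers and 3.29 for the mesenchyme markers. The part of cell makeup in the values of the urea cycle genes was not tested.

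At 2.5 weeks the 2 kinds of assembloid lay closer. Arg1 stood at 422, 328 and 432 CPM in homeostatic and at 388, 104 and 521 CPM in fibrotic-like assembloids, and the groups overlapped. Nags stood at 46.6, 48.8 and 45.6 CPM against 38.8, 11.3 and 36.4 CPM, and Slc25a13 at 74.7, 68.0 and 66.2 CPM against 53.4, 37.7 and 44.4 CPM. For these 2 genes, Asl and Slc25a15 every fibrotic-like library lay below every homeostatic one, and fibrotic-like replicate 2 was the lowest library for all 4. The share of all genes that separated in this way was not counted. Mesenchyme markers summed to 1390 to 5076 CPM in fibrotic-like and 195.3 to 292.6 CPM in homeostatic assembloids. Hepatocyte markers summed to 42450 to 166700 against 162000 to 204700 CPM. The part of cell makeup in these values was not tested. By edgeR 0 of 8 passed (background 0%), with 0 of 8 at an unadjusted p under 0.05 and 0 by DESeq2 and limma. Without homeostatic 1 week replicate 2, which is in the same fit, 0 of 8 passed as well (background 0.258%), with log2 fold changes from -0.88 to 0.70.

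Between 2.5 weeks and 1 week 0 of 8 passed in homeostatic (background 0%) and 0 of 8 in fibrotic-like assembloids (background 0%), and 0 of 8 in the mesenchyme by time interaction (background 0%). By edgeR 0, 1 (Slc25a15) and 0 of 8 reached an unadjusted p under 0.05 in that order, and DESeq2 and limma called 0. Without homeostatic 1 week replicate 2, 0 of 8 passed in each of these comparisons, beside 0 of all genes tested.

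The fourth comparison, at 1 week in MM, asked how assembloids differed from HepOrgs alone. By edgeR over 13735 genes 0 of 8 passed in homeostatic assembloids against MM HepOrgs (background 0%; 0 of 8 at an unadjusted p under 0.05, 0 by DESeq2 and limma) and 0 of 8 in fibrotic-like ones (background 0%; 1 of 8, Slc25a15, at an unadjusted p under 0.05, 0 by DESeq2 and limma). Without homeostatic replicate 2 the first count remained 0 (background 0%), while in fibrotic-like assembloids 1 of 8 passed (background 22.9%), Slc25a13 at -1.86 ± 0.37 (edgeR adjusted p = 0.0187). Slc25a13 stood at 28.7, 37.4 and 23.5 CPM in fibrotic-like assembloids and at 106, 128 and 88.7 CPM in MM HepOrgs, without overlap. Nags (2.64 to 25.4 against 58.1 to 69.9 CPM), Slc25a15 and Ass1 did not overlap either, although none passed. The share of all genes without overlap was not counted. The same libraries did not overlap in the summed hepatocyte markers (12720 to 79250 CPM in fibrotic-like assembloids against 105500 to 184300 CPM in MM HepOrgs) or mesenchyme markers (309 to 6503 against 107.2 to 271.9 CPM), whose part in these values was not tested.

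Against fresh hepatocytes all 8 genes were lower in every assembloid group, again without overlap of any library. How many of all genes separated in this way was not counted. By edgeR over 14491 genes 5 of 8 passed as lower in homeostatic assembloids at 1 week (background 3.84%), 7 of 8 in fibrotic-like ones at 1 week (7.42%), 5 of 8 in homeostatic at 2.5 weeks (1.78%) and 5 of 8 in fibrotic-like at 2.5 weeks (3.90%). Cps1, Otc, Ass1, Asl and Slc25a15 passed in all 4. Cps1 stood at 26.4, 0 and 5.86 CPM and at 4.81, 5.49 and 0 CPM in homeostatic and fibrotic-like assembloids at 1 week, and at 2.60 to 17.6 CPM in the 6 libraries of 2.5 weeks. Otc stood at 0 to 5.27 CPM over the 12 libraries. Their log2 fold changes ran from -10.34 ± 2.48 to -8.37 ± 2.30 for Cps1 and from -10.01 ± 2.10 to -8.25 ± 1.96 for Otc.

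Arg1 was 6.38-fold lower than in fresh hepatocytes in homeostatic assembloids of 2.5 weeks (log2 fold change -2.67 ± 1.64, edgeR adjusted p = 0.456), against 61.8-fold lower in fibrotic-like assembloids at 1 week (-5.95 ± 1.91, 0.0472). Without homeostatic 1 week replicate 2 the counts were 7 of 8 (background 9.55%), 8 of 8 (23.1%), 7 of 8 (12.4%) and 8 of 8 (18.3%) in the order above, and Arg1 passed in all 4, at -2.53 ± 0.77 (edgeR adjusted p = 0.0352) in homeostatic assembloids of 1 week and -2.67 ± 0.66 (0.0121) in those of 2.5 weeks. The gene that did not pass in homeostatic assembloids was Nags, at -1.53 ± 0.73 (0.155) and -1.79 ± 0.64 (0.0585).

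Several of these calls rested on single libraries while homeostatic 1 week replicate 2 was kept. In fibrotic-like assembloids at 1 week leaving out any 1 of the 6 compared libraries ended the Arg1 and Slc25a13 calls (edgeR adjusted p up to 0.148), and leaving out fibrotic-like replicate 1 ended that of Cps1 (0.0548). In homeostatic assembloids of 2.5 weeks any 1 of the 6 ended the calls of Cps1, Otc and Slc25a15, and any but fresh replicate 3 that of Asl (up to 0.186), so that Ass1 alone held in each. In fibrotic-like assembloids of 2.5 weeks any 1 of the 6 ended the Cps1 call (up to 0.118), and replicates 2 and 3 that of Otc (0.0612 and 0.055). In homeostatic assembloids at 1 week the Cps1 call was lost without any 1 fresh library or without replicate 3 (up to 0.0882), and the Otc call without replicate 3 or fresh replicate 3 (0.0587 and 0.0534).

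Ordered by median CPM, fresh hepatocytes came first for all 8 genes and overlapped no other group. Overlap between groups was not counted over all genes, here or for the neighbours below. Among the 8 culture groups neighbours in the order nearly always overlapped. The exceptions were Asl between homeostatic assembloids of 2.5 weeks and MM HepOrgs of 2 weeks, Asl and Slc25a15 between HM-Wnt HepOrgs of 1 week and fibrotic-like assembloids of 1 week, Arg1 between fibrotic-like assembloids of 1 week and HM-Wnt HepOrgs of 1 week, and Slc25a13 between fibrotic-like assembloids of 2.5 weeks and of 1 week. Over the means of the 8 culture groups, as a description with libraries and depth shared by all genes, Nags and Slc25a13 varied most alike (Pearson r = 0.965, n = 8), Otc varied with Arg1 (0.827) and Cps1 not with Otc (-0.439). These means include homeostatic 1 week replicate 2, at 0 CPM for Nags, Cps1, Otc and Arg1 and 0.327 CPM for Slc25a13. The correlations were not computed without that library.

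Arg2, the mitochondrial arginase and second gene for the step that Arg1 serves in liver, was higher in HepOrgs than in fresh hepatocytes. It stood at 0.163, 0.682 and 0.334 CPM in fresh hepatocytes and at 17.3, 22.7 and 27.9 CPM in HM-Wnt HepOrgs at 2 weeks, without overlap. Its log2 fold changes against fresh were 5.43 ± 0.85 and 5.71 ± 0.86 in HM-Wnt (edgeR adjusted p = 0.000181 and 0.000118) and 3.35 ± 0.79 and 2.10 ± 0.78 in MM (0.00433 and 0.0457). The last call was lost without MM 2 weeks replicate 3 (1.03, edgeR adjusted p = 0.296), without fresh replicate 1 (1.76, 0.149) and without fresh replicate 3 (2.06, 0.115). Per exon length Arg2 exceeded Arg1 in each HM-Wnt library of 2 weeks, at 43.7 to 84.4 TPM against 0.341 to 6.71 TPM, whereas in fresh hepatocytes Arg1 was at 1599.8 to 2126 TPM and Arg2 at 0.264 to 1.06 TPM. In MM Arg2 was lower than in HM-Wnt over both times (-2.84 ± 0.51, edgeR adjusted p = 0.00343). Arg2 overlaps Vti1b on the opposite strand.

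Gls2, the liver glutaminase, which supplies ammonia, fell in HepOrgs. It stood at 129.6, 289.5 and 95.2 CPM in fresh hepatocytes and at 0.373 to 2.42 CPM in the 12 HepOrg libraries. Its log2 fold changes were -7.27 ± 0.54, -6.54 ± 0.52, -7.95 ± 0.56 and -7.75 ± 0.55. No HepOrg library overlapped the fresh ones, and the edgeR adjusted p was at most 6.62e-07 in the 4 tests. Gls2 overlaps Spryd4 on the opposite strand. Slc25a12, the other aspartate-glutamate carrier, rose slightly, from 13.8, 29.8 and 16.3 CPM in fresh hepatocytes to 28.3 to 48.0 CPM, with log2 fold changes from 0.76 ± 0.27 to 1.11 ± 0.27 (edgeR adjusted p from 0.0038 to 0.0369). Of the 12 HepOrg libraries only MM 2 weeks replicate 3, at 28.3 CPM, lay below the highest fresh value. Without fresh replicate 3 the calls in HM-Wnt at 1 week and in MM at both times were lost, and fresh replicate 1, HM-Wnt 1 week replicate 1, MM 1 week replicate 2 and MM 2 weeks replicates 1 and 2 also ended 1 or more of them (edgeR adjusted p from 0.0502 to 0.125). Slc25a2, the other ornithine carrier, was counted in none of the 27 libraries.

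**Figure D5:**
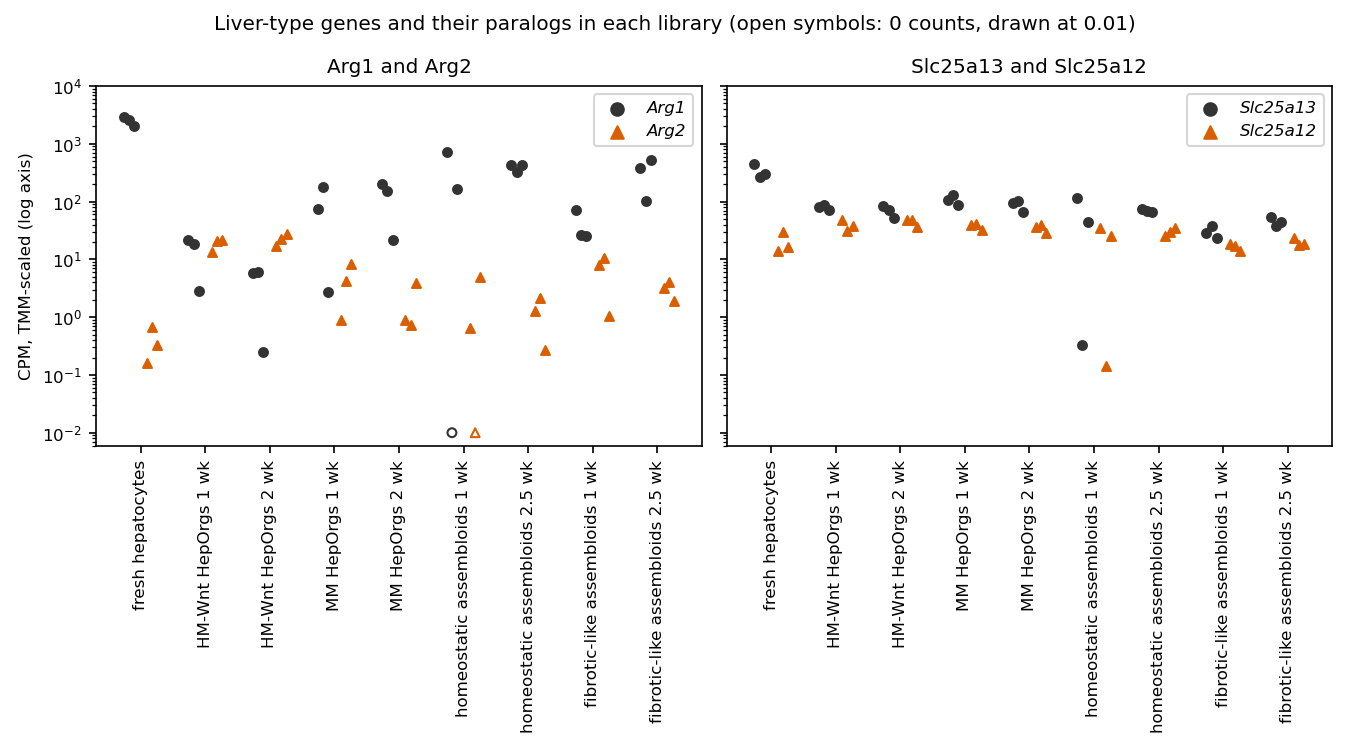
Level in CPM (log axis) of Arg1 beside Arg2 and of Slc25a13 beside Slc25a12, one point per library in the 9 groups, with open symbols for libraries at 0. Arg1 is high in fresh hepatocytes and low in HM-Wnt HepOrgs, while Arg2 is low in fresh hepatocytes and higher in HM-Wnt HepOrgs.

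The genes of nitrogen supply and use, a list of 28 of which 25 were tested in HepOrgs, mostly fell against fresh hepatocytes. In the order HM-Wnt 1 week, HM-Wnt 2 weeks, MM 1 week and MM 2 weeks, 15, 16, 14 and 14 were lower, beside 24.8, 25.7, 21.3 and 20.0% of all genes tested, and 4 higher in each. Of all 13405 genes tested, 6666, 6942, 5738 and 5321 passed in either direction, 3325, 3442, 2855 and 2680 of them as lower. Slc38a4, an amino acid transporter, was at 1630 to 2010 CPM in fresh hepatocytes and at 0.757 to 3.75 CPM in HM-Wnt HepOrgs at 1 week. Car5a, the mitochondrial carbonic anhydrase that gives CPS1 its bicarbonate, fell from 159 to 210 CPM in fresh hepatocytes to 0.281 to 0.638 CPM (-8.53 ± 0.73, edgeR adjusted p = 1.38e-06). Nos2, which uses arginine for nitric oxide, was at 0 in the fresh libraries and at only 0.208 to 0.551 CPM in HM-Wnt HepOrgs at 1 week. Their mean of 0.347 CPM was at least 3.46-fold higher against the floor of 3 counts per library (0.1 CPM), so Nos2 stayed near the floor. In MM against HM-Wnt over both times 9 of 25 were higher and 2 lower, beside 21.5% of all genes in either direction, with Car5a (3.26 ± 0.48, 0.00115), Slc38a4 (3.15 ± 0.63, 0.00571) and the alanine aminotransferase Gpt (1.53 ± 0.14, 9.77e-05) leading, and Arg2 was among the 2 that were lower. In assembloids against fresh (1 week homeostatic and fibrotic-like, then 2.5 weeks), 4, 8, 2 and 6 of 26 were lower, beside 3.84, 7.42, 1.78 and 3.90% of all genes, and 0, 0, 0 and 1 higher. Without homeostatic 1 week replicate 2 these became 12, 16, 13 and 14 lower, beside 9.55, 23.1, 12.4 and 18.3% of all genes, and 2, 3, 1 and 3 higher. With all libraries 1733, 2725, 681 and 1744 of 14491 genes passed in either direction, 556, 1075, 258 and 565 of them as lower. Without that library it was 3361, 7715, 3951 and 6132 of 14997, with 1432, 3470, 1855 and 2750 lower.

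Of 10 regulators of urea cycle genes, 8, 6, 8 and 6 were lower in HepOrgs than in fresh hepatocytes, beside 24.8, 25.7, 21.3 and 20.0% of all genes, and 0, 1, 0 and 0 higher, in the same order. The counts of all genes in either direction are those given for the nitrogen list. Cebpa, a liver transcription factor, fell from 158 to 217 CPM in fresh hepatocytes to 14.6 to 21.7 CPM in HM-Wnt at 1 week (-3.38 ± 0.20, edgeR adjusted p = 9.74e-08). Klf15, a factor known for control of amino acid breakdown, fell from 222 to 271 CPM to 10.6 to 35.1 CPM (-3.34 ± 0.39, 1.65e-05). Ppargc1a, a coactivator induced in fasting, fell as well (-2.72 ± 0.44, 0.00023). The 1 that rose was Cebpb in HM-Wnt at 2 weeks (2.52 ± 0.59, 0.0032). In MM against HM-Wnt over both times the liver factor Creb3l3 (1.17 ± 0.14, edgeR adjusted p = 0.000448), the glucagon receptor Gcgr (0.90 ± 0.19, 0.00695) and Cebpa (0.52 ± 0.13, 0.0169) were higher, and Cebpb (-1.53 ± 0.43, 0.0287) and the glucocorticoid receptor Nr3c1 (-0.56 ± 0.13, 0.00942) were lower. In assembloids against fresh 1, 3, 1 and 2 of 10 were lower, Nr3c1 in each of the 4 groups, and 0 higher; without homeostatic 1 week replicate 2 it was 3, 10, 5 and 8 lower and 0 higher, with the same shares of all genes as for the nitrogen list.

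The 8 periportal markers, a list that includes Gls2, summed to 13110 to 19660 CPM in fresh hepatocytes, 803.6 to 1905 CPM in HM-Wnt HepOrgs, 5971 to 14220 CPM in MM HepOrgs and 18330 to 40740 CPM in homeostatic assembloids of 2.5 weeks. The periportal sum in homeostatic assembloids of 2.5 weeks thus overlapped that of fresh hepatocytes, while the summed urea cycle level there was 591 to 762 TPM against 6400 to 8780 TPM. The sum does not stand for each marker. Gls2 was at 1.66 to 1.87 CPM in these assembloids against 95.2 to 290 CPM in fresh hepatocytes.

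Genes with the most similar pattern over the 9 group means were looked for among 3495 genes, as a description in which all genes share libraries and depth. The means include homeostatic 1 week replicate 2, and the search was not run without it. Cps1 was closest to Ebp (Pearson r = 0.973, n = 9), Otc to Slc40a1 (0.974), Ass1 to Id3 (0.983) and Asl to Dera (0.992). Arg1 was closest to Cyp2j6 (0.964), Nags to F5 (0.996), Slc25a15 to Atp5a1 (0.985) and Slc25a13 to Phyh (0.992).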

How the data were processed

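Bulk RNA-seq (SMARTseq2 libraries, paired reads) was measured in 27 libraries in 9 groups of 3, grouped by their GEO titles; per the labels one genotype field goes against its title. The deposited table stacks a count per gene and library, made by the authors by aligning reads with STAR to GRCm39 and counting them per gene, beside a TPM that the authors computed with a length close to the whole gene span (within 5% of it for 80.8% of 21705 genes matched to GENCODE vM39). TPM were therefore recomputed from the counts with exon lengths. The table also holds 10 libraries with no matching title, which were not used. Total counts were 30289364 to 65348596 per library, median 43727965, and a library at 0 was bounded by 3 counts, which covers counting error only.

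Counts were fitted with edgeR 4.0.16 in R 4.3.3 (TMM scaling, filterByExpr with a minimum count of 10 and total of 15, quasi-likelihood F test, prior count 2). P-values were adjusted by the Benjamini-Hochberg method over all genes of a comparison, with a threshold of 0.05. SE is the log2 fold change divided by the square root of F. HepOrgs and fresh hepatocytes (15 libraries), HepOrgs (12), assembloids (12), MM cultures of 1 week (9) and assembloids with fresh hepatocytes (15) were fitted apart. DESeq2 1.42.0, limma 3.58.1 on log2(TPM + 1) and log2(TPM + 0.1) for genes with at least 1 TPM in 3 libraries, and other filters, scalings and sets of libraries were alternatives. The limma runs used the TPM of the authors, not those recomputed with exon lengths. Leaving homeostatic 1 week replicate 2 out of every fit was added after seeing the data. The tests were tried on simulated counts. Replicate numbers were taken to pair HepOrg libraries because the deviations of same-numbered libraries correlated over 0.1 in 18 of 18 pairs (0.127 to 0.503), against 2 of 36 other pairs; this comes from the data and not from the labels.

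The named genes were the 8 genes, their second genes, and up to 3 genes in each direction with the largest change of the lists of nitrogen supply and use and of regulators, plus the genes most like each of the 8; 1 gene that this rule names is not reported here. The members and lists were chosen with earlier results of these data known. In the figures, marker lists and tests no library was dropped unless stated. Where reads of near-identical copies or of overlapping genes on the other strand were assigned is not given in the sources used here.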

Additional observations from a re-analysis of the deposited data

How the results depend on the processing

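With all 27 libraries in 1 fit, 5 of 8 urea cycle genes passed against fresh hepatocytes in MM HepOrgs at 1 week and 5 at 2 weeks (8 in the fit of 15), and 0 in MM against HM-Wnt over both times (2). In that fit Nags, Slc25a13 and, in MM, Arg1 lost their calls against fresh hepatocytes. For MM against HM-Wnt at 1 week (0 of 8), DESeq2 gave 1 and the replicate block 1. At 2 weeks (0 of 8), DESeq2 gave 2, no filter on low counts 1, the replicate block 3 and fitting only the groups compared 1. Over both times (2 of 8), the filter of at least 10 counts in every library gave 0, with Otc and Arg1 no longer tested, limma on log2(TPM + 0.1) gave 1 and the replicate block 5. For fibrotic-like against homeostatic assembloids at 1 week (0 of 8), DESeq2 gave 1 and all 27 libraries 1. For fibrotic-like assembloids against MM HepOrgs (0 of 8), fitting only the groups compared gave 1. Against fresh hepatocytes, homeostatic assembloids at 1 week (5 of 8) gave 3 with at least 10 counts in every library and 0 with only the groups compared, fibrotic-like ones at 1 week (7 of 8) gave 4 with the former filter, homeostatic ones at 2.5 weeks (5 of 8) gave 3 with that filter, 3 with the replicate block and 8 with only the groups compared, and fibrotic-like ones at 2.5 weeks (5 of 8) gave 3 and 8. Leaving out 1 library at a time gave 7 to 8 for MM HepOrgs at 2 weeks against fresh, 0 to 1 and 1 to 3 for MM against HM-Wnt at 2 weeks and over both times, 0 to 3 for fibrotic-like against homeostatic assembloids at 1 week, 0 to 1 for fibrotic-like assembloids against MM HepOrgs, and 3 to 7, 4 to 8, 1 to 7 and 3 to 8 for assembloids against fresh hepatocytes in the order above. The cause of these shifts was not tested, except that stricter filters tested fewer genes. The block changed no other count of the 8 genes by over 1.5 times. In the fit of HepOrgs with fresh hepatocytes same-numbered libraries correlated over 0.1 in 19 of 30 pairs, against 7 of 60 others. In the fit of assembloids it was 6 of 18 against 5 of 36. In that of MM cultures of 1 week it was 2 of 9 against 4 of 18. For assembloids with fresh hepatocytes it was 7 of 30 against 6 of 60. Of log2 fold changes that passed, none changed sign under any alternative. Counts over all genes moved further with other tools, filters and fits that kept every library of the groups compared, from 5321 to 6942 down to 1890 to 3248 for HepOrgs against fresh hepatocytes (all 27 libraries), from 387, 1488 and 2792 to between 0 and 1420, 7 and 2544, and 91 and 3759 for MM against HM-Wnt at 1 week, 2 weeks and over both, from 0 to up to 910 and 738 for fibrotic-like against homeostatic assembloids at 1 and 2.5 weeks, from 0 to up to 263 and 3436 for assembloids against MM HepOrgs, from 1733, 2725, 681 and 1744 to between 0 and 3566, 2066 and 6430, 467 and 4726, and 1252 and 5346 for assembloids against fresh hepatocytes, and from 0 to 2 to at most 308 for times in culture and interactions. Without homeostatic 1 week replicate 2 they were 1181 and 38 for fibrotic-like against homeostatic assembloids, 0 and 3280 against MM HepOrgs, and 3361, 7715, 3951 and 6132 against fresh hepatocytes. Depth limits what can be said of Otc, of which HepOrg libraries held 0 to 72 counts.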
